A study of Mus musculus with 8 samples.

Results

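Histone genes were followed through anti-Flag RNA immunoprecipitation (RIP) in mouse embryonic stem cells (ESCs). The members are the protein-coding genes of the count table whose GENCODE symbol starts with Hist1h, Hist2h, Hist3h or Hist4h, 67 in number, together with 8 named variant genes (*H2afz*, *H2afx*, *H2afv*, *H2afy*, *H3f3a*, *H3f3b*, *H1f0* and *H1fx*), which makes 75 of the 52550 genes in the table. All cells were *Eif4a2* KO ESCs in medium with 2i and LIF, and they carried either the empty vector (EV) or Eif4a2flag, a Flag-tagged copy of the translation initiation helicase eIF4A2. RNA was sequenced from the inputs and after a 3 h incubation with anti-FLAG M2 antibody (5 µg), in 4 groups of 2 libraries each: input EV, input Eif4a2flag, RIP EV and RIP Eif4a2flag. RIP EV contained no tagged protein and therefore gives the background of the procedure. Library preparation used the QuantSeq kit, which primes on A-rich sequence and reads a tag towards the 3′ end of a transcript. The *Eif4a2* tags counted do not show whether they lie in the edited part of the gene and check nothing here. For RIP Eif4a2flag replicate 2, 1 label field names Eif4a3, while its title, source and genotype name Eif4a2flag.

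A nucleosome holds pairs of the core histones H2A, H2B, H3 and H4, and linker histone H1 sits where DNA enters and leaves it. Most core and H1 proteins come from replication-dependent genes, which lie in clusters, mostly lack introns and are transcribed in S phase. Their mRNAs are the known exception to polyadenylation in animals. They end just after a conserved stem-loop that is bound by SLBP, and the cut is directed by U7 snRNP. Variant histones are made throughout the cell cycle from ordinary genes with a poly(A) signal. *H2afx* is known to give both kinds of mRNA, and replication-dependent genes can also give polyadenylated forms from signals farther downstream.

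The sequences shown first are those that set the 2 classes of genes apart and that bear on which RNA a 3′ tag can count. The capitals mark the 16 bases of the stem-loop, in the sense of the gene, with 5 bases on each side. Coordinates give the capitals on GRCm38, and the letters are from the RefSeq genome of that build.
Hist1h1e, chr13:23621782-23621797, minus strand: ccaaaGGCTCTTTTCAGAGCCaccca
Hist1h1a, chr13:23764392-23764407, plus strand: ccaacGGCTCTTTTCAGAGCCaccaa
Hist1h3d, chr13:23576244-23576259, plus strand: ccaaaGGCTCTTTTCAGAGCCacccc
Hist1h4i, chr13:22040966-22040981, minus strand: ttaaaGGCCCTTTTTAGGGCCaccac
Hist3h2a, chr11:58955172-58955187, plus strand: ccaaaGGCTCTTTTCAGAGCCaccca
Hist3h2ba, chr11:58949349-58949364, plus strand: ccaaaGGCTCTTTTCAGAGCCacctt
H2afx, chr9:44335240-44335255, plus strand: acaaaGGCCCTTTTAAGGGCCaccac
These stem-loops all lie after the stop codon, in the annotated 3′ untranslated part of their single exon (for *Hist1h1a* 1 base runs past the annotated end).

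A stem-loop was found within 100 bases after the stop codon in 65 of the 67 replication-dependent genes, on the strand of the gene. The exceptions were *Hist1h2an* and *Hist2h2be*, for which no match stood in this window. Its distance from the stop codon ran from 21 to 58 bases, with a median of 30. One form, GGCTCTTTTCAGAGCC, was shared by 41 genes of the H1, H2A, H2B and H3 families and by no H4 gene. All 13 H4 genes had forms with other stems, of which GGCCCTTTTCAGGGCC was the most frequent, in 8 genes. Of the 8 variants, *H2afx* was the only one with a match. Over 21674 protein-coding genes searched in their longest coding transcript, 0.3% had a match, and 2 of these were no members (*H2bfm*, a further histone gene, and *Nemp1*).

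The second kind of sequence is the poly(A) signal, searched as AATAAA or ATTAAA on the strand of the gene in the last 50 bases of each annotated transcript. Signals are shown for 3 replication-dependent genes and for *H2afx*, the variant that also has a stem-loop. *Hist3h2a* and *Hist3h2ba* were chosen because they were higher in RIP Eif4a2flag than in RIP EV, and *Hist1h4i* because its replicates differed. Picked by their values, they cannot show a link between signal and RIP. *Hist1h1c* and *Hist1h2ae* also have a signal and were fitted lower there (log2 differences −1.64 and −1.07, not called). Capitals mark the signal and coordinates give its 6 bases.
Hist3h2a, chr11:58956797-58956802, plus strand: gtatatgcccAATAAAataagagtac
Hist3h2ba, chr11:58949507-58949512, plus strand: taatggtattAATAAAtttggttcaa
Hist1h4i, chr13:22040651-22040656, minus strand: ttctgtttacATTAAAagtattctat
H2afx, chr9:44336043-44336048, plus strand: ggctaattttATTAAAggatcgtttg
A signal stood there in all 8 variants but in only 17 of the 67 replication-dependent genes. In the longest transcript alone, it stood in 6 of the variants and in 72.9% of 21674 protein-coding genes. The annotation ran more than 50 bases past the stem-loop in 30 replication-dependent genes, so tags from extended transcripts could be assigned to these. In *Hist3h2a* it ran 1643 bases past the stem-loop and in *Hist3h2ba* 169 bases. In 16 genes it ended at or before the end of the stem-loop.

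The replication-dependent genes lay on chromosome 13 (54 genes, the Hist1 cluster), chromosome 3 (10 genes, Hist2), chromosome 11 (2 genes, Hist3) and chromosome 6 (*Hist4h4*). Neighbouring members share much of their sequence, and reads with more than 1 alignment stayed out of the counts, which bounds what could be measured. Of the 50-base windows of a transcript, a median of 47% occurred more than once in the genome for replication-dependent genes, against 3.07% for the variants. The median was lowest for H1 genes (1.19%) and highest for H2A genes (73.1%). Among the variants, *H2afz* had 74.6% of such windows and *H3f3a* 30.6%. The 8 replication-dependent genes without a read in any library (*Hist2h2aa1*, *Hist2h2aa2*, *Hist2h3c1*, *Hist1h2bq*, *Hist1h2ao*, *Hist1h4m*, *Hist1h2ap* and *Hist1h2br*) had a median of 96.1% of windows with a second copy. For these genes a count of 0 says little about the RNA. The 37 genes counted below the filter described next had a median of 52.3%, and the 22 that passed it 24.4%. Levels of members with near-identical copies are uncertain for this reason, and so are those of members that overlap another gene (7 replication-dependent genes on the same strand, 21 on the other), since the strand setting of the counting is not given in the sources used here.

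**Figure D1:**
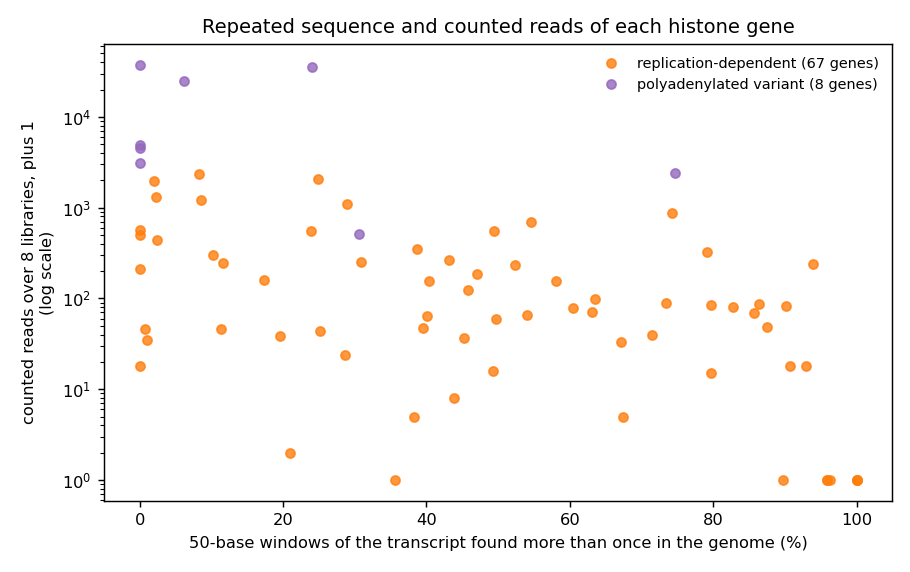
Share of 50-base transcript windows with a second copy in the genome (x axis, percent) against reads counted over all 8 libraries plus 1 (y axis, log scale) for 67 replication-dependent genes and 8 variants, 1 point per gene. Points on the bottom line are the 8 genes with no counted read, of which 7 lie above 50%.

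Gene reads ranged from 2044853 in RIP EV replicate 1 to 11206420 in RIP Eif4a2flag replicate 1, and levels are given as counts per 1000000 gene reads (CPM). Uniquely aligned reads outside annotated exons made up 45.8% and 29.7% of the reads in the RIP EV libraries, against 3.30% and 4.13% in RIP Eif4a2flag and 8.58% to 17.6% in the inputs. Where a floor of 3 counts is taken over the pair of libraries, a transcript with 0 counts in RIP EV can stand at up to 0.557 CPM, which covers counting error only. The 10 markers of naive ESCs that were checked (among them *Pou5f1*, *Nanog* and *Esrrb*) were all counted in the inputs, summing to between 2489 and 3433 CPM. No fibroblast or germ layer marker of the 12 checked passed the filter, and the fibroblast markers summed to at most 8.43 CPM in an input. Members entered a test where they had at least 1 CPM in all 4 inputs, which held for 10754 transcripts, for all 8 variants and for 22 of the 67 replication-dependent genes. Just outside were *Hist1h3c* (lowest input level 0.866 CPM) and *Hist1h3h* (0.649 CPM), and just inside were *Hist1h2bp* and *Hist1h3a* (both 1.08 CPM) and *Hist1h2ab* (1.12 CPM).

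In the inputs, the 67 replication-dependent genes together held a small share of histone tags. They made up 10.4% of 15036 histone reads in input EV replicate 1 (95% Wilson interval 9.95% to 10.9%) and 9.98% of 10236 in replicate 2 (9.42% to 10.6%). In input Eif4a2flag they made up 11.1% of 11072 (10.5% to 11.7%) and 7.93% of 16222 histone reads (7.52% to 8.35%). In RIP EV the share was 47.1% of 4758 (45.7% to 48.5%) and 48.6% of 8684 histone reads (47.6% to 49.7%). In RIP Eif4a2flag it was 10.7% of 37618 (10.4% to 11.0%) and 11.1% of 28572 (10.7% to 11.5%). The 2 RIP EV libraries thus stood apart from the other 6, while the shares in RIP Eif4a2flag lay within the range of the inputs. The intervals treat reads as independent and cover counting error within 1 library, not the spread between libraries. Those of the 2 input Eif4a2flag libraries did not overlap. These shares do not depend on how libraries are scaled. With 2 libraries against 2, an exact permutation test cannot give a two-sided p below 0.333, and none was run on them.

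Between the RIPs, the sums of the 2 classes moved in opposite directions. The replication-dependent genes summed to 1095 and 1262 CPM in RIP EV, 359 and 318 CPM in RIP Eif4a2flag, 216 and 319 CPM in input EV, and the input Eif4a2flag values were 266 and 207 CPM. The mean sum was 3.48-fold lower in RIP Eif4a2flag than in RIP EV, and it was 4.41-fold higher in RIP EV than in input EV. On the log2 scale the first of these differences was −1.80 on gene reads and −0.37 on all reads of the table, which include those outside exons and those aligned more than once. The variants summed to 1231 and 1334 CPM in RIP EV, 2998 and 2546 CPM in RIP Eif4a2flag, 1853 and 2875 CPM in input EV, and the input Eif4a2flag values were 2130 and 2399 CPM. Their mean sum was 2.16-fold higher in RIP Eif4a2flag than in RIP EV, a log2 difference of 1.11 on gene reads and 2.55 on all reads of the table. With library size alone as the scale, all transcripts had a median log2 difference to RIP EV of 0.88. *H2afv* and *H3f3b* held most of the variant sum. The other 6 variants summed to 630 and 526 CPM in RIP EV, and so did not lie below input EV (513 and 465 CPM). In RIP Eif4a2flag these 6 summed to 1387 and 932 CPM. Against input Eif4a2flag, the mean sum in RIP Eif4a2flag was 1.43-fold as high for the replication-dependent genes and 1.22-fold as high for the variants. On TMM-scaled libraries, which move the median of all transcripts from 0.33 to 0.02 in that comparison, the log2 difference was 0.21 for the former and −0.016 for the latter, so the variants had no settled direction.

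**Figure D2:**
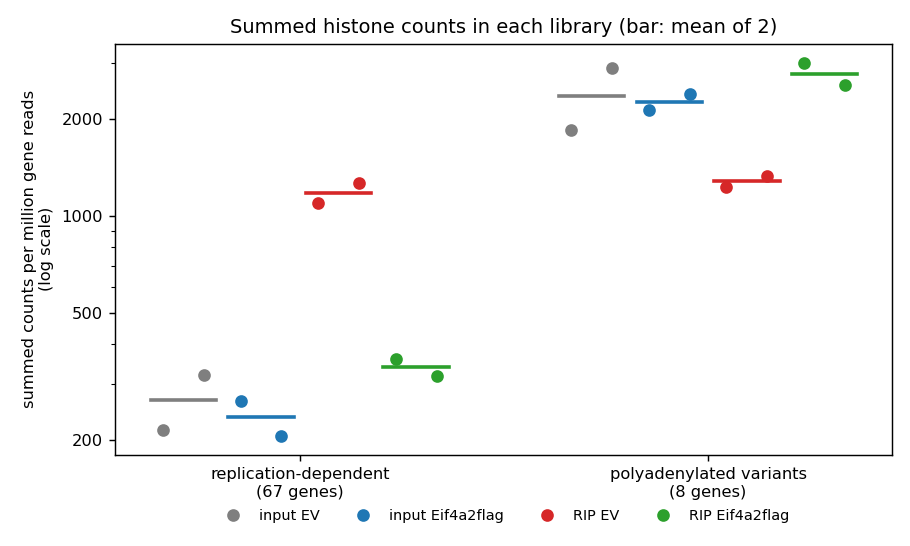
Summed CPM (y axis, log scale) of replication-dependent genes and of variants in each library, with 1 point per library and a bar at the mean of 2. The 2 RIP EV libraries lie above all others for replication-dependent genes (1095 and 1262 CPM) and below all others for the variants (1231 and 1334 CPM). Without *H2afv* and *H3f3b*, the variants summed to 630 and 526 CPM in RIP EV, above input EV (513 and 465 CPM).

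By family, linker H1 genes differed the most between the RIPs. The 6 H1 genes summed to 602 and 498 CPM in RIP EV, 45.6 and 71.7 CPM in RIP Eif4a2flag, 52.7 and 38.7 CPM in input EV, and the input Eif4a2flag values were 64.5 and 18.0 CPM. The mean was 9.38-fold lower in RIP Eif4a2flag than in RIP EV, with no overlap between the libraries. The 12 H3 genes summed to 214 and 182 CPM in RIP EV against 36.3 and 38.2 CPM in RIP Eif4a2flag, a 5.32-fold lower mean. They were the one family that lay below its input in the RIP Eif4a2flag libraries, where both inputs had 63.8 and 71.6 CPM. *Hist1h3d* alone set this direction, since the other 11 H3 genes summed to 8.87 and 17.5 CPM in the inputs and to 30.0 and 35.4 CPM in RIP Eif4a2flag. The 18 H2B genes summed to 132 and 154 CPM in RIP EV against 65.4 and 43.9 CPM in RIP Eif4a2flag, a 2.62-fold lower mean. The 18 H2A genes had 70.9 and 346 CPM in RIP EV against 127 and 108 CPM in RIP Eif4a2flag, and so overlapped. The 13 H4 genes had 76.8 and 81.6 CPM in RIP EV against 84.6 and 56.2 CPM in RIP Eif4a2flag, and overlapped as well. Scaled to all reads of the table, the log2 differences to RIP EV were −1.75 for H1 and −0.94 for H3, but 0.45 for H2A, 0.04 for H2B and 1.27 for H4, so the direction of the last 3 rests on the scaling. The share of windows that are A-rich (at least 7 A in 10 bases) was also highest in the H1 family, with a median of 1.32% against 0.505% over all 67 genes and 1.09% over all protein-coding genes. Its part in the result was not tested.

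**Figure D3:**
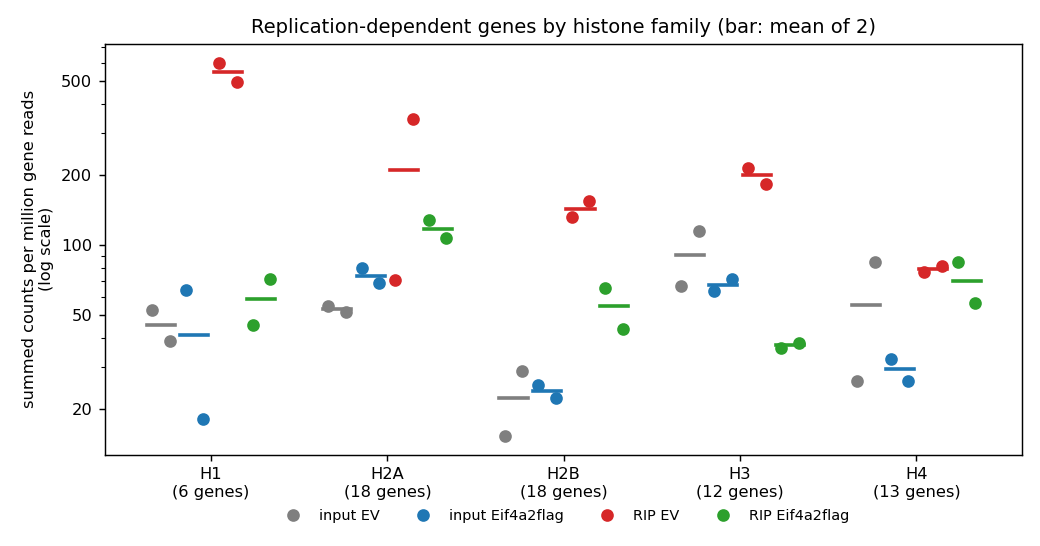
Summed CPM (y axis, log scale) of replication-dependent genes by histone family in each library, with 1 point per library and a bar at the mean of 2. H1 shows the widest gap between RIP EV (602 and 498 CPM) and RIP Eif4a2flag (45.6 and 71.7 CPM), and H2A and H4 overlap between these groups.

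The comparison of RIP Eif4a2flag with RIP EV asks which RNAs were recovered with the tagged helicase beyond the background. By edgeR's quasi-likelihood test on all 8 libraries with Benjamini-Hochberg adjustment over 10754 transcripts, 6 of the 30 tested members were higher (3 of 22 replication-dependent genes and 3 of 8 variants) and 6 were lower, all of them replication-dependent. Over all transcripts tested, 24.8% were higher and 5.46% lower. The median log2 difference was −2.20 for the replication-dependent genes and 0.77 for the variants, against 0.64 for all transcripts. With library size alone as the scale, the median of all transcripts was 0.88. Setting the genes with 0 counts in both RIP EV libraries to their lower bounds left both list medians as they were. The limits on these calls were wide. Fitted on the 4 RIP libraries alone, edgeR called 0 of the 30 members and 0 of all transcripts. At an unadjusted p under 0.05, 7 members were higher and 8 lower in that fit. DESeq2 on 8 libraries kept all 12 and called 6 members higher and 10 lower, against 30.4% and 10.5% of all transcripts. Leaving out RIP EV replicate 1 gave 6 higher and 14 lower members, against 41.5% and 18.2% of all transcripts, and leaving out its replicate 2 gave 11 and 9, against 58.1% and 16.2%. Leaving out RIP Eif4a2flag replicate 1 gave 4 and 1 (18.5% and 1.32% of all transcripts), and its replicate 2, 5 and 2 (20.3% and 1.65%).

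Linker histones led the fall. *Hist1h1e* encodes one of the main somatic H1 proteins. It had 330 and 222 CPM in RIP EV, 19.5 and 35.7 CPM in RIP Eif4a2flag, 22.6 and 10.6 CPM in input EV, and the input Eif4a2flag values were 21.6 and 4.82 CPM. Both RIP EV libraries lay far above the other 6, and the log2 difference of RIP Eif4a2flag to RIP EV was −3.60 (SE 0.89, adjusted p = 0.0230). *Hist1h1a* had 76.8 and 78.3 CPM in RIP EV and between 1.93 and 4.98 CPM in the other 6 libraries. Its log2 difference was −4.69 (SE 0.81, adjusted p = 0.00711). *Hist1h1b* had 68.5 and 60.7 CPM in RIP EV, 1.87 and 3.91 CPM in RIP Eif4a2flag and between 1.77 and 8.67 CPM in the inputs. *Hist1h1d* had 111 and 38.0 CPM in RIP EV and between 1.24 and 4.68 CPM elsewhere. The differences were −4.75 for *Hist1h1b* (SE 0.87, adjusted p = 0.00812) and −5.49 for *Hist1h1d* (SE 1.07, adjusted p = 0.00977). *Hist1h1c*, the H1 gene with a poly(A) signal that was tested, had a spread too wide for a call, with 15.6 and 99.8 CPM in RIP EV, 18.4 and 25.9 CPM in RIP Eif4a2flag and between 6.75 and 32.9 CPM in the inputs (log2 difference −1.64, SE 1.09, adjusted p = 0.330). *Hist1h1t*, the testis form, was below the filter with at most 6 reads in a library. *Hist1h1e* overlaps *Hist1h2be* and *Gm11398* on its own strand. Without RIP Eif4a2flag replicate 1, none of these 4 H1 calls remained, and without replicate 2 that of *Hist1h1b* did.

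*Hist1h3d*, an H3 gene, was the replication-dependent member with the highest input level. It had 49.7 and 90.5 CPM in input EV, while input Eif4a2flag had 55.0 and 54.1 CPM. After the RIP it stood at 156 and 117 CPM in RIP EV against 6.34 and 2.81 CPM in RIP Eif4a2flag. Unlike the H1 genes, it lay below its inputs as well as below RIP EV in RIP Eif4a2flag. The log2 difference to RIP EV was −5.18 (SE 0.63, adjusted p = 0.00662) and that to input −3.88 (SE 0.60, adjusted p = 0.132). *Hist1h2ac*, an H2A gene, had 6.85 and 33.5 CPM in RIP EV against 1.52 and 1.80 CPM in RIP Eif4a2flag, with a log2 difference of −3.85 (SE 0.90, adjusted p = 0.0185). Its call was lost without either input Eif4a2flag library and without either RIP Eif4a2flag library.

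The Hist3 pair on chromosome 11 went the other way. *Hist3h2a*, which encodes an H2A, had no read in either RIP EV library, 90.1 and 50.6 CPM in RIP Eif4a2flag, 11.6 and 6.24 CPM in input EV, and the input Eif4a2flag values were 39.8 and 29.1 CPM. Against the floor of 3 counts over both RIP EV libraries it was at least 128-fold higher in RIP Eif4a2flag (adjusted p = 0.00662). The bound was 79.7-fold without RIP EV replicate 1 and 48.7-fold without RIP EV replicate 2. *Hist3h2ba*, an H2B gene a few kilobases away, also had 0 counts in both RIP EV libraries, with 32.5 and 7.12 CPM in RIP Eif4a2flag, 3.03 and 7.18 CPM in input EV, and the input Eif4a2flag values were 5.84 and 6.59 CPM. It was at least 36.9-fold higher in RIP Eif4a2flag than in RIP EV (adjusted p = 0.0110). The bound was 22.9-fold and 14.0-fold without RIP EV replicate 1 or 2, and 12.8-fold and 58.4-fold without RIP Eif4a2flag replicate 1 or 2. Both genes have the stem-loop and the poly(A) signal shown above. *Hist3h2a* overlaps *Trim17* on its own strand. *Hist1h2ab*, an H2A gene without such a signal, had 4.28 and 5.61 CPM in RIP Eif4a2flag, 0 counts in RIP EV and between 1.12 and 3.71 CPM in the inputs, which put it at least 8.82-fold higher (adjusted p = 0.00725), or at least 5.47-fold and 3.35-fold without RIP EV replicate 1 or 2. Of its windows, 58.0% have a second copy in the genome.

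Members with and without a poly(A) signal were also counted apart. Of the 22 tested replication-dependent genes, 6 have a signal near the annotated end. Among these, 2 were higher than RIP EV, namely the neighbours *Hist3h2a* and *Hist3h2ba*, and 0 lower. The others were not called, with *Hist1h1c* and *Hist1h2ae* fitted lower and *Hist1h4i* and *Hist1h2bp* fitted higher. Of the 16 without a signal, 1 was higher and 6 were lower. Over all transcripts tested, 24.8% were higher and 5.46% lower. Summed over all 67 genes, the 17 with a signal stood at 60.2 and 170 CPM in RIP EV against 210 and 115 CPM in RIP Eif4a2flag, and so overlapped. Of this sum, *Hist3h2a* and *Hist3h2ba* held 123 and 57.7 CPM in RIP Eif4a2flag and 0 in RIP EV. The 50 without one stood at 1035 and 1093 CPM in RIP EV against 150 and 202 CPM in RIP Eif4a2flag. In the inputs these 50 summed to 164 and 243 CPM (EV) and to 154 and 143 CPM (Eif4a2flag). Their mean was 6.05-fold lower in RIP Eif4a2flag than in RIP EV, but it was RIP EV that stood apart from the inputs. Most of the replication-dependent tags of RIP EV lay in these genes. The signal was searched after the members were known and these values carry no test.

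Among the variants, *H2afx*, the source of the H2A.X protein that is phosphorylated at DNA breaks, had 1053 and 565 CPM in RIP Eif4a2flag, 232 and 171 CPM in RIP EV, 258 and 254 CPM in input EV, and the input Eif4a2flag values were 444 and 303 CPM. Both RIP Eif4a2flag libraries lay above the other 6, with a log2 difference to RIP EV of 1.71 (SE 0.40, adjusted p = 0.0186). *H2afv*, one of 2 genes for H2A.Z, had 738 and 886 CPM in RIP Eif4a2flag, 293 and 251 CPM in RIP EV, 708 and 1312 CPM in input EV, and the input Eif4a2flag values were 737 and 991 CPM. The log2 difference was 1.30 (SE 0.33, adjusted p = 0.0266), and it was RIP EV that stood apart. *H3f3a*, one of 2 genes for H3.3, had 11.0 and 3.41 CPM in RIP Eif4a2flag, 0 counts in RIP EV and between 13.8 and 19.3 CPM in the inputs. It was at least 13.3-fold higher than RIP EV (adjusted p = 0.0123), while both RIP Eif4a2flag libraries lay below both of their inputs. The bound was 8.26-fold and 5.05-fold without RIP EV replicate 1 or 2, and 6.12-fold without RIP Eif4a2flag replicate 1. The call of *H2afv* was lost without either RIP Eif4a2flag library and that of *H2afx* without replicate 1.

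The other 5 variants gave no call. *H3f3b*, the second H3.3 gene and with *H2afv* the most counted member, had 872 and 727 CPM in RIP Eif4a2flag and 309 and 557 CPM in RIP EV (log2 difference 0.61, SE 0.36, adjusted p = 0.266). *H2afy*, the macroH2A1 gene, had 88.6 and 127 CPM in RIP Eif4a2flag and 110 and 120 CPM in RIP EV. *H2afz*, the other H2A.Z gene, had 48.8 and 45.0 CPM in RIP Eif4a2flag and 32.3 and 79.8 CPM in RIP EV. The 2 RIP EV libraries disagreed most for linker variants. *H1f0*, the H1 of differentiated cells, had 1.47 and 65.2 CPM in RIP EV against 91.5 and 61.0 CPM in RIP Eif4a2flag, and *H1fx* had 254 and 89.7 CPM in RIP EV against 94.8 and 131 CPM in RIP Eif4a2flag. Adjusted p-values for *H1f0* and *H1fx* were 0.658 and 0.335.

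**Figure D4:**
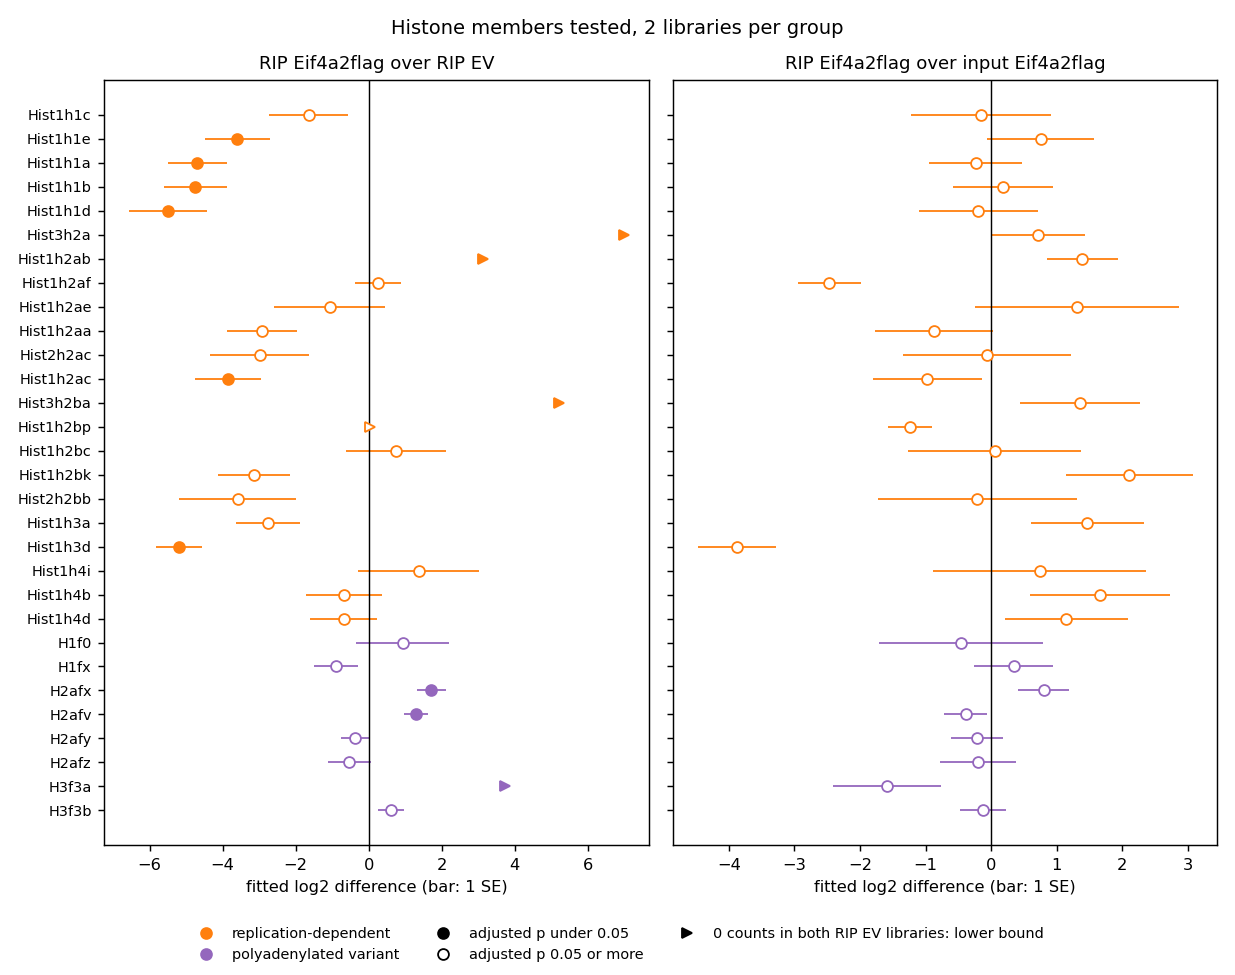
Fitted log2 differences (x axes, bar 1 SE) of the 30 tested members in RIP Eif4a2flag over RIP EV (left) and over input Eif4a2flag (right), with the 2 classes in 2 colours and filled points for an adjusted p under 0.05 by edgeR. Triangles are lower bounds for genes with 0 counts in both RIP EV libraries; 12 points are filled on the left, 6 to each side, and none on the right.

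**Figure D5:**
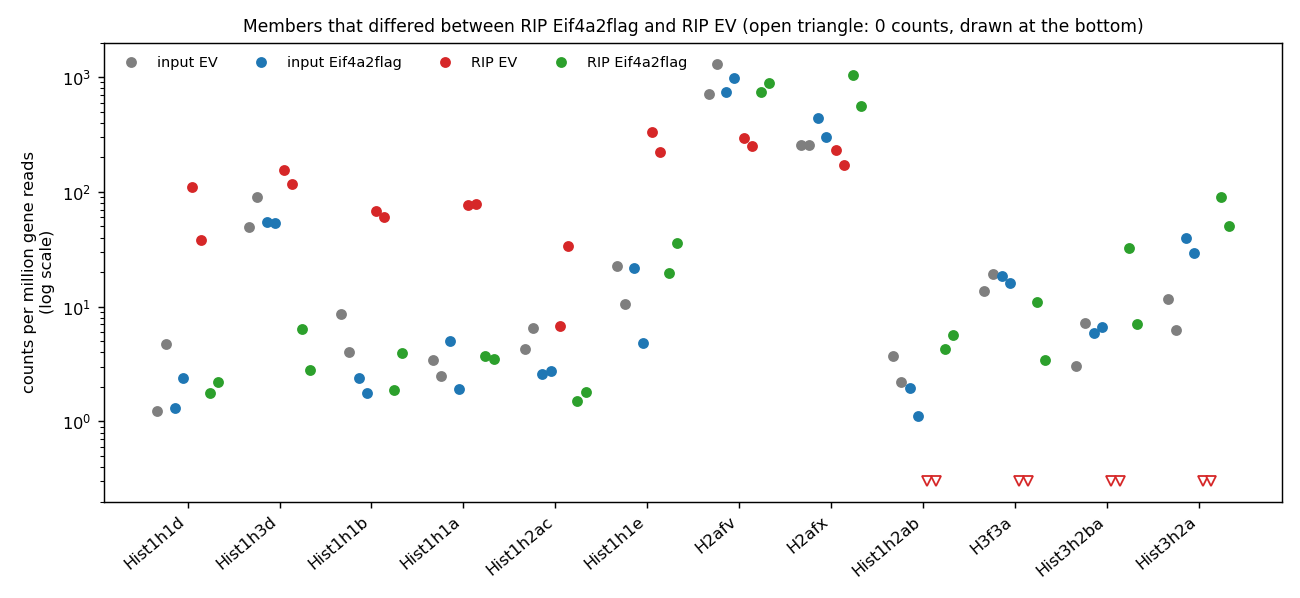
CPM (y axis, log scale) in each of the 8 libraries for the 12 members that differed between RIP Eif4a2flag and RIP EV, 1 point per library; open triangles at the bottom are 0 counts. For the 4 H1 genes the RIP EV points stand above all others, and for *Hist3h2a*, *Hist3h2ba*, *H3f3a* and *Hist1h2ab* they are at 0.

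RIP Eif4a2flag against its own input gave a different picture. No member passed the threshold by edgeR (0 of 30), where 0% of all transcripts were higher and 0.0558% lower. Without adjustment, 331 transcripts were higher and 632 lower at p under 0.05. DESeq2 gave 274 and 430 calls in these directions. Among the members, an unadjusted p under 0.05 was reached by 1 that was higher and 3 that were lower, and by DESeq2 0 were called higher and 2 lower (*Hist1h3d* and *Hist1h2af*). For 10 of the 30 members the RIP values were both above the inputs and for 6 both below, against 45.8% and 18.7% of all transcripts. The median log2 difference was 0.12 for the replication-dependent genes and −0.21 for the variants, against 0.02 over all transcripts. *H2afx* was above both inputs, at a log2 difference of 0.80 (SE 0.39, adjusted p = 0.653). *Hist1h2bk*, an H2B gene, had 9.28 and 18.7 CPM in RIP Eif4a2flag against 2.38 and 2.89 CPM in its inputs (log2 difference 2.11, SE 0.97, adjusted p = 0.611). *Hist1h2af* was at 0.803 and 0.802 CPM against 4.98 and 2.41 CPM (log2 difference −2.47, SE 0.48, adjusted p = 0.174). The 4 H1 genes that were lower than in RIP EV had log2 differences to input from −0.23 for *Hist1h1a* to 0.75 for *Hist1h1e*. With either RIP EV library left out the fit called *Hist1h2bk* higher and *Hist1h2af* and *Hist1h3d* lower, where 7.25% and 7.86% of all transcripts were called without replicate 1 and 8.07% and 7.23% without replicate 2. On the 4 libraries of the comparison it called *Hist1h2bk* and *Hist1h4b* higher and *Hist1h2af* and *Hist1h3d* lower, against 8.44% and 8.46% of all transcripts. These member counts are near the shares over all transcripts.

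The background itself was compared as RIP EV against input EV. By edgeR with Benjamini-Hochberg adjustment 5 members were higher, namely *Hist1h1a*, *Hist1h1b*, *Hist1h1d*, *Hist1h1e* and *Hist1h2bk*, and 7 were lower, namely *Hist3h2a*, *Hist3h2ba*, *Hist1h2ab*, *Hist1h2af*, *Hist1h2bp*, *H2afv* and *H3f3a*. Over all transcripts 4.5% were higher and 26.3% lower. Of the lower members, *H3f3a*, *Hist3h2a*, *Hist3h2ba*, *Hist1h2ab* and *Hist1h2bp* had 0 counts in both RIP EV libraries. Against the floor of 3 counts they were at least 27.8-fold, 17.8-fold, 7.72-fold, 5.83-fold and 2.06-fold lower in turn. *Hist1h2bp* had only 8 and 4 reads in input EV. Its bound fell to 0.781-fold without RIP EV replicate 2, so its direction is not secure. The median log2 difference was 1.83 for the replication-dependent genes, −0.19 for the variants and −0.64 for all transcripts. The log2 difference was 4.01 for *Hist1h1e* (SE 0.91, adjusted p = 0.0169), 4.67 for *Hist1h1a* (SE 0.81, adjusted p = 0.00834) and −1.88 for *H2afv* (SE 0.34, adjusted p = 0.00880). *Hist1h2bk* had 131 and 71.4 CPM in RIP EV against 1.38 and 9.05 CPM in input EV. This comparison shares the RIP EV libraries with the one above, and the 2 are not independent. With input EV replicate 1 left out, 1 member was higher and 5 lower. With its replicate 2 left out the counts were 2 and 5, and with RIP EV replicate 1 left out 13 and 6. The shares of all transcripts in these 3 fits were 1.2% higher and 19.9% lower, 0.837% and 19.9%, and 17.7% and 42.3%. Leaving out RIP EV replicate 2 instead turned the balance, with slightly more members lower than higher, and far more of all transcripts lower. On the 4 libraries alone edgeR called 0 members and 0 of all transcripts (at an unadjusted p under 0.05, 5 members were higher and 7 lower). DESeq2 on 8 libraries called 9 members higher and 6 lower, against 10% and 32% of all transcripts.

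The inputs of the 2 cell lines did not separate the members. By edgeR 0 of 30 members were called, as were 0% of all transcripts in each direction, and by DESeq2 0 of 30 members (13 of all transcripts higher and 3 lower). With no adjustment and p under 0.05, 75 of all transcripts were higher and 59 lower, and among the members 1 was higher in input Eif4a2flag, *Hist3h2a* (log2 difference 1.94, SE 0.74, adjusted p = 1.00), and 0 were lower. Both input Eif4a2flag libraries lay above both input EV libraries for 5 members and below for 6, against 19.8% and 17.3% of all transcripts. *H1f0*, *H2afx* and *H2afy* were among the 5, with *H1f0* at 85.0 and 85.0 CPM in input Eif4a2flag against 34.4 and 27.8 CPM in input EV.

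The difference of the RIP over input change between the 2 cell lines sets both references at once. By edgeR's test of this interaction, 4 members were higher in the Eif4a2flag cells (*Hist3h2a*, *Hist3h2ba*, *Hist1h2ab* and *H3f3a*, all at 0 in RIP EV) and 3 were lower (*Hist1h1a*, *Hist1h1d* and *Hist1h3d*), where 19.2% of all transcripts were higher and 2.1% lower. For *Hist1h1a* the difference was −4.90 (SE 1.05, adjusted p = 0.0209), for *Hist1h1d* −4.91 (SE 1.35, adjusted p = 0.0451) and for *Hist1h3d* −4.86 (SE 0.79, adjusted p = 0.0176). For *H2afv* it was 1.49 (SE 0.47, adjusted p = 0.0693). These calls were lost without most single libraries. They fell to 0, as did those of all transcripts, without input EV replicate 1, without either input Eif4a2flag library and without either RIP Eif4a2flag library, to 3 without input EV replicate 2, and rose to 16 with either RIP EV library left out (5 higher and 11 lower without replicate 1, against 35.9% and 11.8% of all transcripts, and 9 and 7 without replicate 2, against 54% and 12.4%). For this difference, DESeq2 on 8 libraries called 5 members higher and 6 lower, against 24.5% and 5.65% of all transcripts.

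The members outside the filter differed between the RIPs mainly in whether they were counted at all. Of the 37 counted members below it, 26 had no read in either RIP EV library, and 21 of these had reads in both RIP Eif4a2flag libraries. *Hist1h3c* had 61 and 67 reads in RIP Eif4a2flag, *Hist1h3h* 58 and 117 and *Hist1h4h* 57 and 46, each with 0 in RIP EV. Other members were counted in a single RIP EV library, such as *Hist1h2bn* (83 reads in replicate 2) and *Hist1h4a* (89 reads in replicate 1). RIP Eif4a2flag was sequenced more deeply, with 3.93 times the gene reads of RIP EV, and the lower depth of RIP EV limits what a 0 there says. The matching share over all transcripts below the filter is not given here. These counts therefore cannot show whether histone genes differ in this from other transcripts of low count. Over all 67 genes, 21 and 26 were counted in the RIP EV libraries, 56 and 52 in RIP Eif4a2flag and between 44 and 54 in the inputs. A few genes carried the RIP EV sum, since *Hist1h1e*, *Hist1h3d*, *Hist1h2bk*, *Hist1h1d*, *Hist1h1a* and *Hist1h1b* held 79.6% and 46.5% of its replication-dependent reads, against 32.9% to 40.3% in the inputs and 11.9% and 21.1% in RIP Eif4a2flag.

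Other replication-dependent members among the 12 with the highest input levels gave no call between the RIPs. *Hist1h2aa*, known as a testis H2A gene, had 26.9 and 159 CPM in RIP EV, 11.1 and 18.3 CPM in RIP Eif4a2flag and between 11.5 and 23.6 CPM in the inputs (log2 difference to RIP EV −2.92, SE 0.95, adjusted p = 0.0619). *Hist1h4i* had 0 and 20.0 CPM in RIP EV against 49.1 and 13.9 CPM in RIP Eif4a2flag. *Hist1h3a* had 29.8 and 64.9 CPM in RIP EV against 8.48 and 8.42 CPM in RIP Eif4a2flag, which did not overlap (log2 difference −2.75, SE 0.89, adjusted p = 0.0588). *Hist1h4b* and *Hist1h4d* overlapped between the RIPs, with log2 differences of −0.68 each.

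The genes that act on histone mRNA and histone protein were read from lists, against the 24.8% of all transcripts that were higher than RIP EV and the 5.46% that were lower. Of 29 genes of histone mRNA processing, translation and decay, 6 were higher in RIP Eif4a2flag than in RIP EV (*Cpsf1*, *Cpsf2*, *Dis3l2*, *Ncbp1*, *Snrpb* and *Snrpd3*) and 2 lower (*Fip1l1* and *Slbp*), with a median log2 difference of 0.83. *Slbp*, whose protein binds the stem-loop, had 175 and 35.0 CPM in RIP EV, 11.8 and 6.92 CPM in RIP Eif4a2flag and between 11.1 and 16.9 CPM in the inputs. Its log2 difference to RIP EV was −3.79 (SE 0.92, adjusted p = 0.0217), the direction of the H1 genes. *Mif4gd*, which links SLBP to translation initiation, had 2.45 and 141 CPM in RIP EV against 160 and 119 CPM in RIP Eif4a2flag and gave no call (adjusted p = 0.759). Of 25 histone chaperone genes, 1 was higher (*Ubn1*) and 4 were lower (*Nap1l1*, *Nasp*, *Ncl* and *Npm1*), with a median of −0.20. *Npm1*, which encodes nucleophosmin, had 1603 and 1397 CPM in RIP EV against 450 and 373 CPM in RIP Eif4a2flag (log2 difference −2.15, SE 0.23, adjusted p = 0.00662). Of 24 replication genes of S phase, 3 were higher (*Mcm2*, *Mcm6* and *Rrm1*) and 0 lower, with a median of −0.10. Of 12 further histone genes outside the rule, 3 were tested, and *Cenpa*, the H3 variant of the centromere, was higher (77.8 and 40.1 CPM in RIP EV, 264 and 272 CPM in RIP Eif4a2flag, log2 difference 1.90, SE 0.46, adjusted p = 0.0206). Against input Eif4a2flag no gene of these 4 lists passed the threshold by edgeR. At an unadjusted p under 0.05, 3 processing genes were higher there and 1 lower, and 5 chaperones were higher and 7 lower. Of the replication genes 2 were higher and 2 lower, and the further histone genes gave 0. Over all 10754 transcripts, 331 were higher and 632 lower at this p. By DESeq2, the calls against input were 1 and 1 for processing, 1 and 6 for chaperones, and 1 and 0 for replication genes, higher and lower in turn. DESeq2 called 2.55% of all transcripts higher and 4% lower there.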

How the data were processed

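RNA of 8 libraries was analysed, in 4 groups of 2 taken from the sample labels. According to the paper and the labels, the authors trimmed the reads, aligned them with STAR (version 2.5.3a) to mm10 and counted them per gene with HTSeq (version 0.11.2). The deposited values are raw counts without normalization, for 52550 genes and 5 summary lines, which stayed out of library totals. Neither annotation release nor strand setting is given in the sources used here. Reads with more than 1 alignment were not counted on genes. Symbols, positions and transcripts were taken from GENCODE vM21, matched by gene identifier without its version number, and 52403 genes had a name. Depth was between 2044853 and 11206420 gene reads per library, and reads carry no molecular identifiers. The paper describes 2 clones of the Eif4a2flag cells as replicates of the RIP. For the EV libraries no source used here gives separate clones or cultures, so their spread may be technical.

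Transcripts that reached 1 CPM in each of the 4 inputs (10754) were fitted with edgeR (version 4.0.16, R version 4.3.3) by its quasi-likelihood test on all 8 libraries with TMM factors, and adjusted p-values (Benjamini-Hochberg, threshold 0.05) are over all of them. DESeq2 (version 1.42.0) on 8 libraries was an alternative. CPM values are on gene reads without TMM factors. Named genes are the 8 variants, the 12 replication-dependent members with the highest input level, members past the threshold, listed genes past it, *Slbp* and *Mif4gd*; others were chosen after their values were seen. The members and gene lists were chosen with earlier results of these data known. Stem-loops, poly(A) signals and repeated windows (50 bases, with exact copies on either strand of the reference chromosomes) were searched on GRCm38 and are descriptions. Protein sequences were not used here.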

Additional observations from a re-analysis of the deposited data

Results flagged for a closer look

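By edgeR's test of the difference between the cell lines (2 libraries per group), 19.2% of all transcripts were higher and 2.1% lower. The calls of members were lost without most single libraries. For 7 of the 30 tested members the change from input to RIP differed between the cell lines in this test. It was higher in Eif4a2flag than in EV cells for *Hist3h2a* (log2 9.62), *Hist3h2ba* (log2 9.38), *Hist1h2ab* (log2 8.72) and *H3f3a* (log2 8.16), whose sizes depend on a prior count because RIP EV held 0 reads, and lower for *Hist1h1d* (log2 −4.91), *Hist1h1a* (log2 −4.90) and *Hist1h3d* (log2 −4.86).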

How the results depend on the processing

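With 2 libraries per group, the counts of members called (12 against RIP EV, 0 against input Eif4a2flag, 12 for RIP EV against input EV, 0 between inputs and 7 for the difference between cell lines) depended on the fit. Over all transcripts, the shares called higher and lower were 24.8% and 5.46% against RIP EV and 0% and 0.0558% against input Eif4a2flag. They were 4.5% and 26.3% for RIP EV against input EV, 0% in each direction between inputs, and 19.2% and 2.1% for the difference. On the 4 libraries of a comparison edgeR called 0, 4, 0 and 0 members in the first 4 comparisons, with the interaction not fitted. DESeq2 on 8 libraries called 2 against input, both lower (4% of all transcripts were lower), and 11 for the difference. Without a filter 23 were called against RIP EV (67 tested), 12 higher and 11 lower, against 16.8% and 5.13% of all transcripts. That fit called 1 lower against input (0.36% of all transcripts). For the difference it called 10 members higher and 1 lower, against 8.67% and 1.66% of all transcripts. Leaving out 1 library gave 5 to 20 members against RIP EV, 0 to 3 against input, 6 to 19 for RIP EV against input EV and 0 to 16 for the difference, where the lone library of a group was assumed to vary like the others. The share of all transcripts called also changed with the library left out, so these ranges are not particular to histone genes. The replicate numbers did not pair the libraries (correlations of deviations from −0.07 to 0.13 over 6 pairs of groups). The replicate block left 12 against RIP EV, 0 against input, 10 for RIP EV against input EV and 4 for the difference. Over all transcripts it called 22.7% higher and 3.96% lower against RIP EV. The shares were 2.96% and 24.1% for RIP EV against input EV, and 14.9% and 1.25% for the difference. The log2 change of the summed replication-dependent CPM from input to RIP Eif4a2flag was 0.52, against 0.21 on TMM-scaled libraries and 1.17 on all reads of the table, and 0.35 to 0.71 with a library left out. For the variants it was 0.29, −0.016 and 0.92, and 0.17 to 0.40. Of 1167 recomputed log2 differences of named genes, 69 lost and 45 gained the threshold, 24 moved in another way and 1 turned. The last was *H1f0* in RIP EV against input EV, at 0.06 and not called in the main fit. Its log2 difference was −4.45 without RIP EV replicate 2 and 1.01 without its replicate 1. Of 762 values that were not called either way, 35 changed sign. The cause of these changes was not tested. Depth limits RIP EV the most, with 3 counts equal to 1.47 CPM in its replicate 1. Alternatives for the difference between cell lines and the bounds were added after the data were seen.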
